A study of Mus musculus with 12 samples.

Results

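The 10 genes described here encode Toll-like receptors and the proteins that hold or feed them at the membrane: Ly86, Cd180, Ly96, Cd14, Tlr2, Tlr4, Tlr7, Tlr8, Tlr9 and Tlr13. They were found by symbol among 24883 entries of Cufflinks gene tables made from sorted mouse leukaemia cells, and all 10 had a single entry. On GRCm38, Ly86 (chr13:37345345-37419036) and Cd180 (chr13:102693558-102706631) lie on chromosome 13, Tlr9 (chr9:106222598-106226876) on 9, Tlr2 (chr3:83836272-83841608) on 3 and Tlr4 (chr4:66827811-66842796) on 4, while Tlr7, Tlr8 and Tlr13 lie on X; all are protein-coding genes. They were chosen from their measured FPKM (sequenced fragments normalised for the length of the transcript and the size of the library) across the groups, so their levels and differences are a description and carry no test. Tests are given only for other genes of the pathway.

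GFP-positive cells were sorted from the marrow of 12 mice with acute myeloid leukaemia driven by the MLL-AF9 fusion oncoprotein, and each mouse gave 1 library. Of the mice given doxorubicin, which poisons topoisomerase, and cytarabine, which is built into DNA in place of deoxycytidine, 4 were taken 10 days after the drugs ended (relapse) and 3 were taken 3 days after (induction chemotherapy, iCT). The other 5 received vehicle. All groups carried MLL-AF9. Strain, age, the promoter behind GFP and MLL-AF9, and whether the mice share 1 leukaemia are not stated in the labels used here, so the spread between mice may be that of a single leukaemia. The sorted cells held the leukaemia markers: Hoxa9, Hoxa10, Meis1, Kit, Mpo, Ptprc and Itgam all exceeded 1 FPKM in some library. The groups did not hold Kit alike. Kit averaged 6.84 ± 1.65 FPKM (SD, n = 3) in iCT mice and 25.8 ± 1.21 FPKM (SD, n = 5) in vehicle mice. In relapse mice it averaged 31.6 ± 5.64 FPKM (SD, n = 4). Every iCT mouse was below every vehicle and relapse mouse for Kit, while the other listed markers overlapped between iCT and vehicle mice. The fragments implied by the Cufflinks intervals numbered 361914 in iCT mouse 1 and 1225254 to 8359793 in the other 11 libraries. For genes of low level, zeros in iCT mouse 1 therefore carry little information, and values above 0 there rest on few fragments.

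Toll-like receptors are membrane proteins of innate immune cells that bind molecules of microbes or of damaged cells and signal through the adaptor MyD88 or TRIF to NF-kB and interferon regulatory factors. TLR2 and TLR4 act at the cell surface, where TLR4 needs MD-2, encoded by Ly96, and takes lipopolysaccharide handed over by CD14. RP105, encoded by Cd180, resembles TLR4 without a signalling domain and needs MD-1, encoded by Ly86, to reach the surface. TLR7, TLR8, TLR9 and TLR13 sit in endosomes, where TLR9 senses unmethylated CpG DNA, TLR7 and TLR8 sense RNA, and mouse TLR13 senses bacterial ribosomal RNA. Myeloid cells and B cells are the usual sources of these proteins in marrow.

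The promoters of the genes that were lower in every iCT mouse than in vehicle mice, Ly86, Cd180 and Tlr9, and of Tlr2, which was higher, are printed from RefSeq on GRCm38.p6. Each runs from 250 bases before the start site to 50 after it, 5′ to 3′ on the gene's strand. Capitals mark a match to GAGGAAGT, a PU.1 site, on either strand. GGAANNGAA, a PU.1 site joined to an IRF site, and GGANNTTCC, a form of the NF-kB site, were also searched and matched in none of the 4. Other spellings of these sites were not searched, so the lack of a match does not mean that a promoter lacks the site.

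Ly86 (chr13:37345095-37345394, plus strand): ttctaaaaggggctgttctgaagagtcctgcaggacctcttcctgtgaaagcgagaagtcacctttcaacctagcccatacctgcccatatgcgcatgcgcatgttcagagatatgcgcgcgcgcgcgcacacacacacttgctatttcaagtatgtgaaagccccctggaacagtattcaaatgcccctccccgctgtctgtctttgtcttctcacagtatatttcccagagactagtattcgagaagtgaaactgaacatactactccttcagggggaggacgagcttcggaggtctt
Cd180 (chr13:102693308-102693607, plus strand): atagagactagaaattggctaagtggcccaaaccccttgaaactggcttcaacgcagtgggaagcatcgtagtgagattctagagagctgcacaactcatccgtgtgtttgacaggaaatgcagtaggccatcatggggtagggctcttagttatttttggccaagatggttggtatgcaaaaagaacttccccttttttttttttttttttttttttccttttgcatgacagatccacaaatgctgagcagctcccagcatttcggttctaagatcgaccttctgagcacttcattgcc
Tlr9 (chr9:106222348-106222647, plus strand): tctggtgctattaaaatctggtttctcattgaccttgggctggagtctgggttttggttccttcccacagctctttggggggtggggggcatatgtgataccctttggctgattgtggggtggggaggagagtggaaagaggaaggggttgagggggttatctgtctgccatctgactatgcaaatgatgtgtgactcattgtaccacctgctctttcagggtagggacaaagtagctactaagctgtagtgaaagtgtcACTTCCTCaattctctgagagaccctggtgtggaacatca
Tlr2 (chr3:83841559-83841858, minus strand): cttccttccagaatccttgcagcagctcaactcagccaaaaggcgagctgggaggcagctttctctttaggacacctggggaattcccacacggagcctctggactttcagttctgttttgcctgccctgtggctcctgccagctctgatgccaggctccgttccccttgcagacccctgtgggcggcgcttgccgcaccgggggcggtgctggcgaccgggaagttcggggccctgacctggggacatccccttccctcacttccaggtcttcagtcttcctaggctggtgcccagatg

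The single match was in Tlr9, on the strand opposite to the gene, 11 bases past its start site. GAGGAAGT was present in 3.2% of all 32851 promoters in the table, GGAANNGAA in 8.24% and GGANNTTCC in 4.26%. TATAAA, the TATA box, was in 13.6% of them and in none of the 4 printed. Of the 10 genes, 6 had a promoter in the table; Tlr8 held TATAAA on both strands and Tlr13 held none of the motifs.

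At 3 days after chemotherapy the RP105 pair and Tlr9 were low and Tlr2 and Tlr4 were high, while 10 days after it all of them overlapped with vehicle mice. Ly86 had 0, 5.32 and 6.08 FPKM in iCT mice, against 48.2, 54.2, 59.7, 65.6 and 67.6 FPKM in vehicle mice. The difference of log2(FPKM + 1) was -4.07 (SE 0.56), and -3.16 without iCT mouse 1. Of the 9 genes that passed the filter on low values, 3 were lower in every iCT mouse than in any vehicle mouse, where 10.6% of the 11019 genes tested were; 2 were higher in every iCT mouse, where 5.49% of genes were. The groups overlapped for the other 4. Without iCT mouse 1 the same 5 genes were separated, beside 14.1% of all genes lower and 9.28% higher.

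MD-1 and RP105 form 1 complex, and both genes were lowest in iCT mice. Cd180 was listed at 0 in iCT mouse 1 and had 1.09 and 2.75 FPKM in iCT mice 2 and 3, against 5.05, 6.88, 7.70, 7.79 and 9.14 FPKM in vehicle mice. Every iCT mouse was below the lowest vehicle mouse, and the log2 difference was -2.05 (SE 0.35), or -1.55 without iCT mouse 1. In iCT mice 2 and 3 the value of Ly86 rested on 43.4 and 37.6 implied fragments and that of Cd180 on 23.7 and 45.8. At the vehicle mean, Ly86 would have given 20.6 fragments in iCT mouse 1 and Cd180 6.89. Exons of Cd180 overlap exons of Mast4 on the other strand, and 3.03% of the 50-base windows of Cd180 transcripts also occur in Mast4 transcripts. Whether the libraries kept strand is not stated in the labels used here, so reads from that overlap cannot be told apart.

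Tlr9, the DNA sensor, was the third gene below vehicle. It was listed at 0 in iCT mouse 1 and reached 0.471 and 0.739 FPKM in iCT mice 2 and 3, against 1.33, 1.56, 2.14, 2.96 and 4.23 FPKM in vehicle mice. The log2 difference was -1.27 (SE 0.33), and -1.04 without iCT mouse 1. At the vehicle mean, only 3.51 fragments would have been seen in iCT mouse 1, so its 0 says little by itself; the other iCT mice rested on 16.0 and 18.9 fragments.

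Tlr2, which pairs with TLR1 or TLR6 to bind lipoproteins, and Tlr4 were the genes above vehicle. Tlr2 had 4.53, 7.69 and 19.1 FPKM in iCT mice, against 2.64, 2.81, 3.31, 3.58 and 4.08 FPKM in vehicle mice. Its log2 difference was 1.22 (SE 0.32); iCT mouse 3 held the highest value, and without it the difference was 0.71. Tlr4 had 6.91, 10.2 and 10.6 FPKM in iCT mice, against 4.61, 4.82, 5.64, 5.66 and 5.81 FPKM in vehicle mice, a log2 difference of 0.68 (SE 0.18). The mean of Tlr4 in iCT mice was 9.24 ± 2.02 FPKM (SD, n = 3) and that in vehicle mice 5.31 ± 0.552 FPKM (SD, n = 5). In iCT mouse 1 the 4.53 FPKM of Tlr2 rested on 5.0 implied fragments. Its interval of 0.478 to 8.58 FPKM covers every vehicle value. Tlr4 in that mouse rested on 16.0 fragments, with an interval of 5.28 to 15.8 FPKM. In iCT mice 2 and 3 Tlr2 rested on 206.5 and 399 fragments and Tlr4 on 387 and 194.

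For both partners of TLR4 the groups overlapped. Ly96 (MD-2) was listed at 0 FPKM in iCT mouse 1 and had 4.08 and 6.97 FPKM in iCT mice 2 and 3, against 4.21, 4.58, 4.85, 6.50 and 6.86 FPKM in vehicle mice. Its log2 difference was -0.88 (SE 0.56) and moved to 0.01 without iCT mouse 1, where 1 fragment alone is worth 6.80 FPKM of this short gene. Cd14 was listed at 0 FPKM in iCT mouse 1 and had 4.02 and 7.76 FPKM in iCT mice 2 and 3, against 1.001, 3.84, 4.22, 4.68 and 8.65 FPKM in vehicle mice. Its log2 difference was -0.47 (SE 0.60) and turned to 0.44 without iCT mouse 1.

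The other nucleic-acid sensors stayed within the vehicle range or straddled it. Tlr13 had 3.26, 7.57 and 9.17 FPKM in iCT mice, against 4.67, 4.80, 5.12, 6.13 and 6.37 FPKM in vehicle mice, with a log2 difference of 0.17 (SE 0.28). Tlr7 had 0.769, 1.06 and 1.34 FPKM in iCT mice, against 0.519, 0.813, 0.905, 1.09 and 1.64 FPKM in vehicle mice, with a log2 difference of 0.06 (SE 0.22). Tlr8 was at or below 0.884 FPKM in every library and was left out by the filter. The median log2 change over the 9 genes was -0.47, beside -0.09 over all genes tested, and Cd14 supplied that median.

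**Figure D1:**
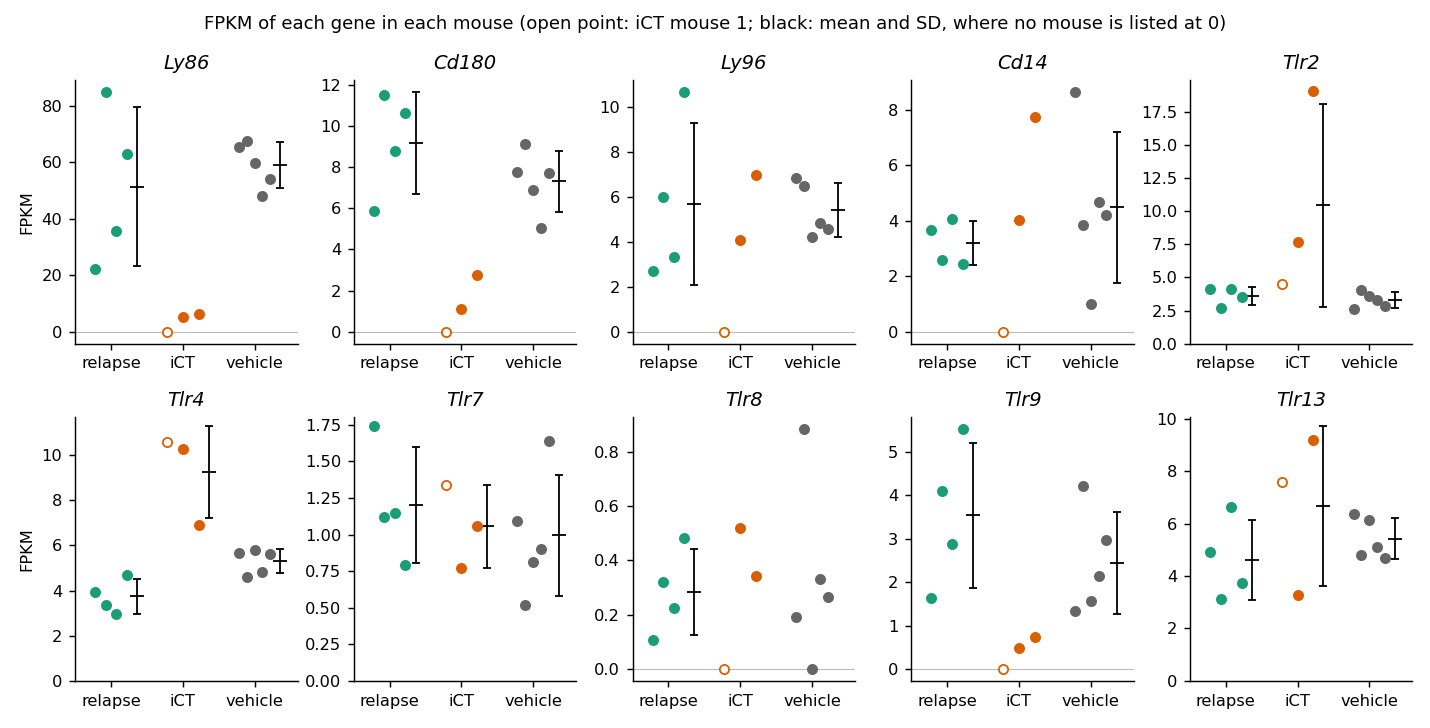
FPKM of the 10 genes in each of the 12 mice, with relapse, iCT and vehicle from left to right; black marks give the mean and SD of groups with no mouse listed at 0, and the open point is iCT mouse 1. Ly86 reached at most 6.08 FPKM in iCT mice, below every relapse and vehicle mouse, and Tlr2 reached 19.1 FPKM in iCT mouse 3.

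At 10 days all 9 genes overlapped with vehicle. Ly86 had 22.1, 35.5, 62.8 and 85.1 FPKM in relapse mice, on both sides of the 48.2 to 67.6 FPKM of vehicle mice. Relapse mice averaged 51.4 ± 28.2 FPKM (SD, n = 4) and vehicle mice 59.1 ± 8.02 FPKM (SD, n = 5), a log2 difference of -0.36 (SE 0.52). The SD of Ly86 was larger in relapse mice. Of the 9 genes, 0 were higher and 0 lower in every relapse mouse, where 9.72% and 4.03% of all genes were. Log2 differences ran from -0.42 for Tlr4 to 0.38 for Tlr9, with a median of -0.07 beside 0.06 over all genes.

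Among relapse mice, Ly86 and Cd180 ranked the mice alike: mouse 2 was highest, then mouse 4, mouse 3 and mouse 1. Cd180 had 5.89, 8.78, 10.6 and 11.5 FPKM in relapse mice, against 5.05 to 9.14 FPKM in vehicle mice. Tlr9 had 1.63, 2.88, 4.11 and 5.53 FPKM in relapse mice, with mouse 1 again lowest and mouse 4 highest, against 1.33 to 4.23 FPKM in vehicle mice. Ly96 was also lowest in relapse mouse 1, at 2.71 FPKM, and highest in mouse 4, at 10.7 FPKM, against 4.21 to 6.86 FPKM in vehicle mice. Tlr4 had 2.94, 3.37, 3.95 and 4.70 FPKM in relapse mice, and only the highest of these reached the vehicle range. Cd14 (2.44 to 4.07 FPKM), Tlr2 (2.69 to 4.13 FPKM) and Tlr7 (0.794 to 1.74 FPKM) overlapped with vehicle mice. Tlr13 had 3.14, 3.74, 4.93 and 6.62 FPKM in relapse mice, of which only the third lay within the 4.67 to 6.37 FPKM of vehicle mice.

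Set against iCT mice, relapse mice had more Ly86, Cd180 and Tlr9 and less Tlr2 and Tlr4. This comparison uses the same iCT libraries as the one with vehicle, so the comparisons are not independent. Ly86 was higher in every relapse mouse, 22.1 to 85.1 FPKM, than in any iCT mouse, 0 to 6.08 FPKM, with a log2 difference of 3.71 (SE 0.59), or 2.79 without iCT mouse 1. Cd180 differed by 2.33 (SE 0.37) and Tlr9 by 1.65 (SE 0.35) on the log2 scale. Tlr2 differed by -1.12 (SE 0.34), and by -0.60 without iCT mouse 3, and Tlr4 by -1.10 (SE 0.19). So 3 of 9 genes were higher and 2 lower in every relapse mouse, where 16.9% and 6.33% of all genes were; the groups overlapped for the other 4. The median over the 9 genes was 0.23, beside 0.16 over all genes.

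**Figure D2:**
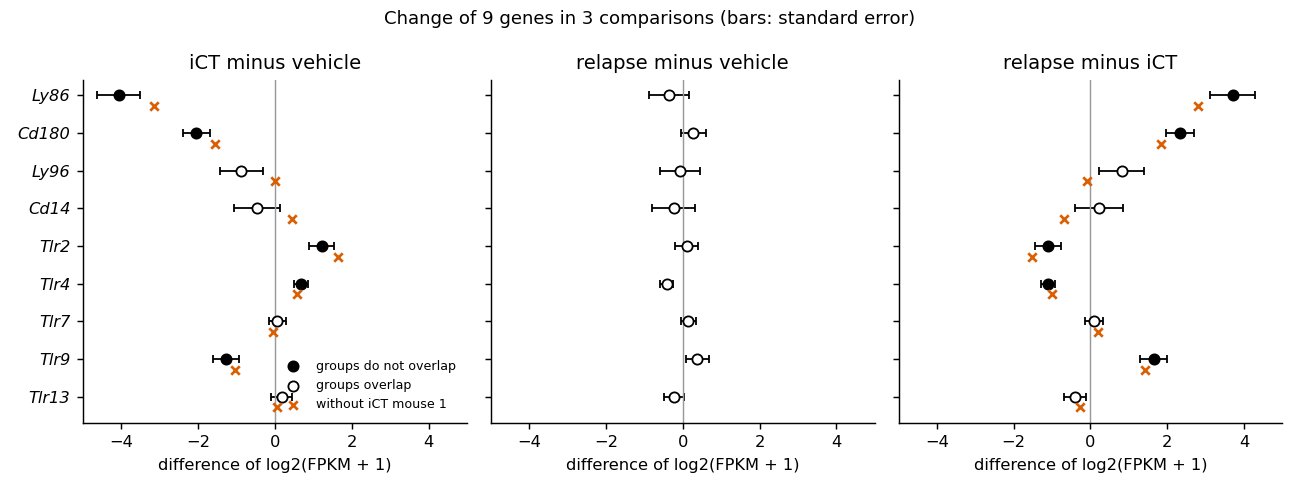
Differences of log2(FPKM + 1) with standard errors for the 9 genes that passed the filter, in 3 comparisons; filled points mark groups that do not overlap and orange crosses give the value without iCT mouse 1. Ly86 lies at -4.07 for iCT minus vehicle and at 3.71 for relapse minus iCT, and all points for relapse minus vehicle are open.

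Levels were also correlated over the libraries of all groups together. Over the 12 libraries, Pearson's r of log2(FPKM + 1) was 0.96 between Cd180 and Ly86, 0.91 between Tlr9 and Cd180, and 0.86 between Tlr9 and Ly86; over the 11 libraries without iCT mouse 1 these were 0.91, 0.86 and 0.78. Tlr4 ran against Cd180, with r of -0.87 over 12 libraries and -0.81 over 11, and Tlr2 against Ly86, with -0.57 and -0.87. The iCT mice lie apart from the rest in each pair, so these coefficients include the difference between groups. They do not show how levels vary between mice of a group. Both values of a point also share the depth and scaling of 1 library. Ly96 and Ly86 had r of 0.74 over 12 libraries and 0.25 over 11.

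Outside the family, the genes whose levels were most like Ly86 were Fam83a, Tifa, Siglecf, Ramp1, Abcb6 and Ly6k, with r of 0.97 to 0.98 over 12 libraries and 0.92 to 0.98 over 11. Tifa encodes an adaptor of TRAF6. It had 10.4 to 15.6 FPKM in relapse mice, 1.24 to 4.34 FPKM in iCT mice and 14.4 to 20.8 FPKM in vehicle mice. Nearest to Cd180 were Tmem229b, Tifab and Cd93, at 0.97 to 0.98, and nearest to Tlr9 were Tagap, C330006A16Rik and Zbtb18, at 0.93 to 0.94. Metap1, Ccnd2 and Adam8 were nearest to Tlr2, at 0.91 to 0.95, and Kcmf1, Pin4 and Wdr12 to Tlr4, at 0.92 to 0.94. For Ly96, Cd14, Tlr7 and Tlr13 the highest coefficients over 12 libraries were 0.95, 0.92, 0.84 and 0.88.

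**Figure D3:**
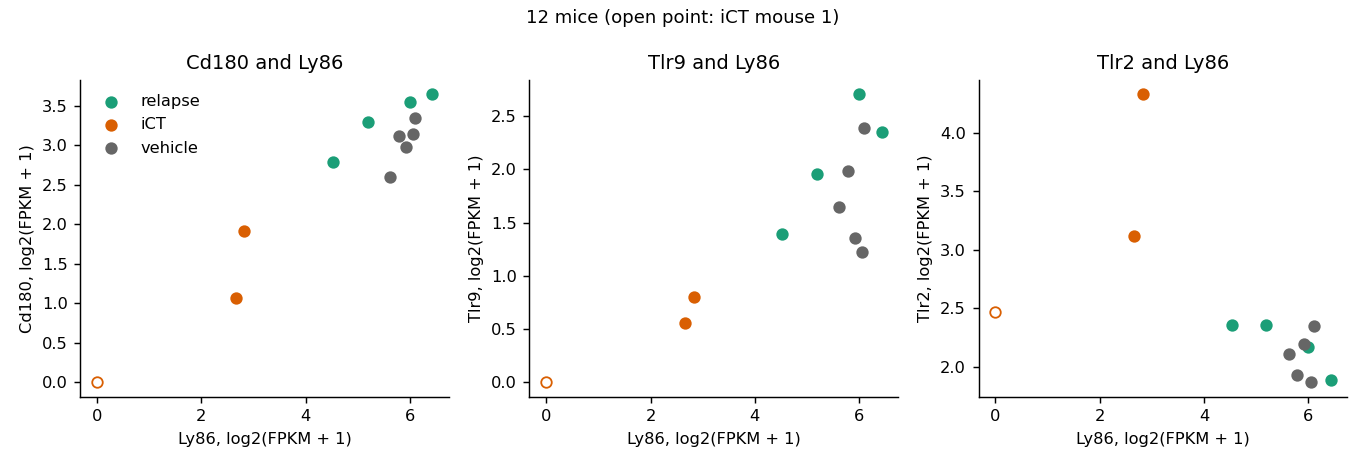
Log2(FPKM + 1) of Cd180, Tlr9 and Tlr2 against that of Ly86 in 12 mice, coloured by group, with iCT mouse 1 open. The iCT mice lie at the low end of Ly86 in each panel, and Tlr2 is highest in the iCT mice.

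The rest of the pathway was tested gene by gene with limma across all 11019 genes. In iCT against vehicle 6 of 110 listed genes were higher and 9 lower (5.45% and 8.18%), where 3.31% and 6.31% of all genes were. The medians were -0.07 for the lists and -0.09 for all genes. Without iCT mouse 1, 2 genes were higher and 6 lower, of 107 tested. Median-of-ratios scaling moved the split over all genes from 365 higher and 695 lower to 496 and 616, and quantile normalization to 526 and 570, so the share of higher calls depends on scaling.

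Of 14 transcription factors tested, 3 fell and 1 rose. Irf8, which specifies monocytes and dendritic cells, fell to 8.67, 9.10 and 10.1 FPKM in iCT mice, against 27.8 to 60.2 FPKM in vehicle mice, a log2 difference of -2.04 (SE 0.29, limma adjusted p = 0.00158). Cebpa, a factor of early myeloid differentiation, fell to 27.8 ± 7.23 FPKM (SD, n = 3) in iCT mice, against 53.8 ± 6.23 FPKM (SD, n = 5) in vehicle mice (log2 difference -0.96, SE 0.17, limma adjusted p = 0.00648). Both kept the call in all 12 fits that left out a library, and under each other setting tried. Irf5, which acts below MyD88, fell by 1.46 on the log2 scale (SE 0.33, limma adjusted p = 0.0186), and this was lost without iCT mouse 1 (-1.19, adjusted p = 0.0612). Spi1, which encodes PU.1, was 0.36 higher (SE 0.10, limma adjusted p = 0.0482). That call was kept only without vehicle mouse 2 or iCT mouse 2, and leaving out any of the other 10 libraries gave an adjusted p of at most 0.142.

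Of the chaperones, Cnpy3, which folds Toll-like receptors in the endoplasmic reticulum, was the single gene of 8 to pass. It fell to 50.2 ± 4.26 FPKM (SD, n = 3) in iCT mice, against 71.3 ± 6.89 FPKM (SD, n = 5) in vehicle mice (log2 difference -0.50, SE 0.10, limma adjusted p = 0.0132). Cnpy3 passed in all 12 fits that left out a library. It did not pass with only the compared groups in the fit (limma adjusted p = 0.0557), nor with mouse number as a term (the replicate block). Of 12 entries for genes of ligand and receptor processing, with Rnaset2b entered at both its loci, Lgmn and Ctsl, lysosomal proteases that can cut TLR9, passed. Lgmn rose to 10.0, 10.1 and 27.8 FPKM in iCT mice, against 1.31 to 2.82 FPKM in vehicle mice (log2 difference 2.35, SE 0.36, limma adjusted p = 0.00258), in every fit tried. Ctsl rose by 1.27 on the log2 scale (SE 0.36, limma adjusted p = 0.0450), a call kept only without vehicle mouse 1, iCT mouse 2 or relapse mouse 1 and lost in the other 9, with 0.88 and adjusted p = 0.156 without iCT mouse 1.

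No adaptor or kinase of 24 passed as fitted. Myd88, the main adaptor, had 48.3 ± 4.20 FPKM (SD, n = 3) in iCT mice and 35.8 ± 5.54 FPKM (SD, n = 5) in vehicle mice (log2 difference 0.43, SE 0.14, limma adjusted p = 0.0623), and passed with median-of-ratios scaling (adjusted p = 0.0278) or quantile normalization (adjusted p = 0.0353). Of 2 other receptors tested, Tlr1 had 8.09 ± 3.70 FPKM (SD, n = 3) in iCT mice and 9.84 ± 1.03 FPKM (SD, n = 5) in vehicle mice (log2 difference -0.35, SE 0.24, limma adjusted p = 0.338). Of 18 negative regulators Sigirr, Dusp1 and Socs3 passed. Sigirr, an inhibitory receptor, fell by 0.75 (SE 0.18, limma adjusted p = 0.0265), and lost the call without vehicle mice 2, 3 or 4 or iCT mouse 1, with an adjusted p of at most 0.0767. Of 9 genes induced by these receptors, Ccl3, a chemokine, passed: it fell to 4.37 ± 0.938 FPKM (SD, n = 3) in iCT mice, against 9.49 ± 0.946 FPKM (SD, n = 5) in vehicle mice (log2 difference -0.98, SE 0.17, limma adjusted p = 0.00648), and kept the call in all 12 fits with a library left out, but not with array weights (adjusted p = 0.0528).

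Of 23 other pattern receptors, Clec4d and Clec4n, C-type lectins for fungal and mycobacterial glycans, rose, and Naip2 and Naip5, sensors of bacterial secretion system rods and of flagellin, fell. The log2 differences were 0.82 for Clec4d (SE 0.22, limma adjusted p = 0.0357), 1.62 for Clec4n (SE 0.43, limma adjusted p = 0.0362) and -0.46 for Naip2 (SE 0.12, limma adjusted p = 0.0332). Clec4d passed in 3, Clec4n in 6 and Naip2 in 5 of the 12 fits that left out a library, with adjusted p of at most 0.111, 0.0965 and 0.0780. Clec4d passed only without vehicle mouse 1, iCT mouse 2 or iCT mouse 3. Clec4n passed only without vehicle mouse 1, iCT mouse 1 or 2, or relapse mouse 1, 2 or 4. Naip2 passed only without vehicle mouse 2 or 4, iCT mouse 2 or 3, or relapse mouse 4. Socs3, Dusp1 and Naip5 had group means under 5 FPKM and were named after their values were seen. With only the compared groups in the fit Ctsl, Irf5, Spi1, Sigirr, Naip2, Clec4d and Clec4n also missed the threshold, and with array weights all of these but Clec4n. With the replicate block all of these genes missed the threshold. Naip2 also missed it with median-of-ratios scaling (adjusted p = 0.0521), Ctsl and Clec4n with a pseudocount of 0.1, and Ctsl, Clec4n, Spi1 and Clec4d with no filter on low values.

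In relapse against vehicle none of the 110 genes passed, and 0% of all 11019 genes did with limma; 1604 genes (14.6%) had an unadjusted p under 0.05. With only the compared groups in the limma fit 595 genes passed, and with array weights 971. In relapse against iCT 9 of 110 were higher and 4 lower, where 6.62% and 3.1% of all genes were. Irf8 was higher in relapse mice, at 26.6, 49.3, 59.0 and 71.4 FPKM, with mouse 1 lowest as for Ly86 (log2 difference 2.27, SE 0.30, limma adjusted p = 0.00160). Ccl3 (1.49), Cebpa (1.001) and Cnpy3 (0.61) were also higher and Lgmn (-2.73) lower, with limma adjusted p of 0.00106, 0.00701, 0.00613 and 0.00183. The split over all genes was 729 higher and 342 lower, and 492 and 514 with median-of-ratios scaling or 431 and 420 with quantile normalization.

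**Figure D4:**
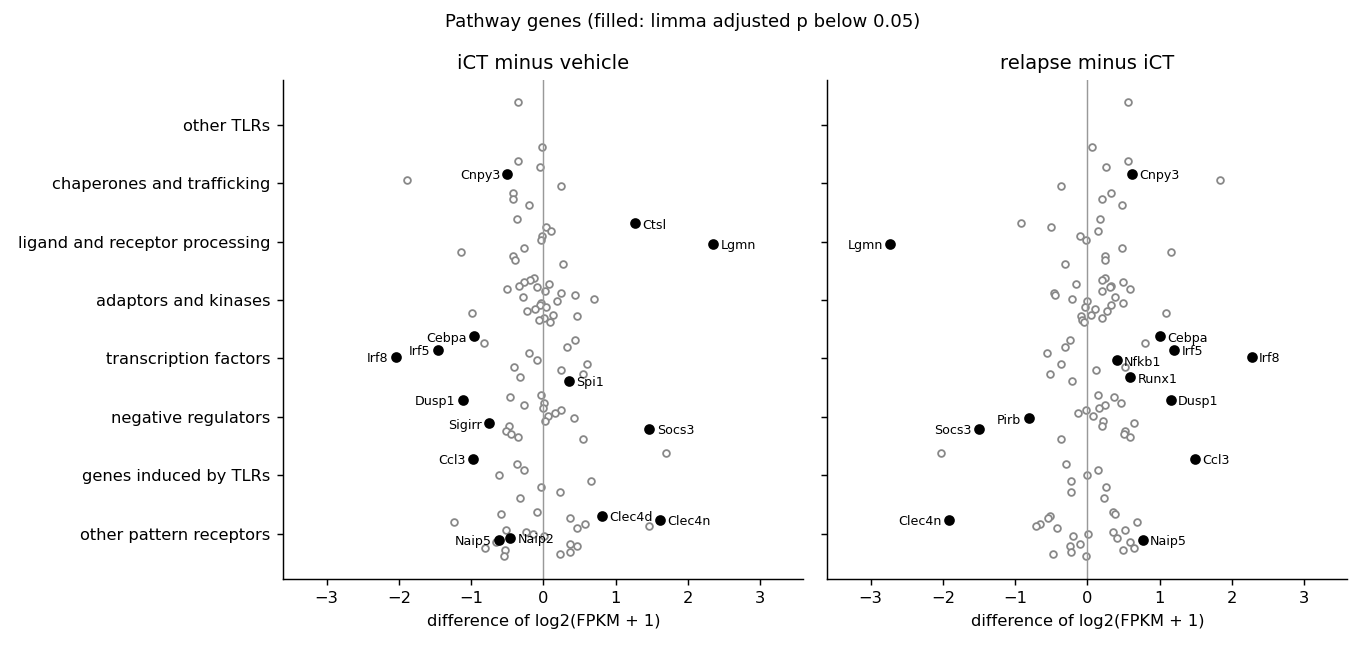
Log2 differences of 110 pathway genes by list, iCT minus vehicle on the left and relapse minus iCT on the right; filled and named points have a limma adjusted p below 0.05. Irf8 lies at -2.04 on the left and at 2.27 on the right, and no adaptor or kinase is filled.

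Markers of other cells moved beside these genes. In sorted bulk cells, fewer cells of a type and less RNA per cell cannot be told apart. The summed FPKM of 9 monocyte genes, all 9 above 1 FPKM in some library and Ly6c2 the highest, was 981 to 2127 in relapse mice, 632 to 696 in iCT mice and 2252 to 2482 in vehicle mice, the same order as Ly86. The sum of 8 osteoclast genes, of which 7 exceeded 1 FPKM in some library, was 43.2 to 165 in relapse mice, 259 to 990 in iCT mice and 22.8 to 75.6 in vehicle mice, highest in iCT mice, as Tlr2 and Lgmn were. The order within iCT mice differed. Acp5, the highest of these genes, had 347 FPKM in iCT mouse 1 and 82.2 and 74.9 FPKM in mice 2 and 3, and Ctsk and Mmp9 also peaked in mouse 1. Tlr2 was lowest in mouse 1, and Tlr2 and Lgmn peaked in mouse 3. The sum of 13 macrophage genes, of which 12 exceeded 1 FPKM, was 108 to 131 in relapse mice, 158 to 299 in iCT mice and 150 to 204 in vehicle mice. Its members moved apart: C1qa, a complement gene, had 21.9, 34.2 and 74.6 FPKM in iCT mice, against 1.91 to 6.78 FPKM in vehicle mice, and C1qb and C1qc ran alike, while Adgre1, which encodes F4/80, had 14.2, 20.8 and 31.8 FPKM in iCT mice, against 72.8 to 87.4 FPKM in vehicle mice. The sum of 11 neutrophil genes found was 6556 to 15400 in relapse mice, 14330 to 18680 in iCT mice and 3837 to 14570 in vehicle mice. These genes also moved apart. Lcn2 had 937 to 1363 FPKM in iCT mice, against 183 to 657 FPKM in vehicle mice, and Ngp, Cd177, S100a8, S100a9 and Cxcr2 also had higher means in iCT mice. Retnlg averaged 23.2 FPKM in iCT mice and 118 FPKM in vehicle mice, and Ltf, Camp, Mmp8 and Csf3r also had lower means in iCT mice. Neutrophils carry Tlr2, Tlr4 and Clec4d. The sum of 4 erythroid genes found, with both entries of Hba-a1 counted, was 46.6 to 163 in relapse mice, 3.71 to 12.3 in iCT mice and 14.7 to 288 in vehicle mice. The part of these cell types in the changes of the receptors was not tested. B cells also carry Cd180 and Tlr9. The sum of 12 B-cell genes, of which 6 exceeded 1 FPKM and Cd79b reached 39.7 FPKM, was 22.3 to 37.8 in relapse mice, 16.9 to 22.6 in iCT mice and 26.02 to 52.7 in vehicle mice. At most in any library, Pax5 reached 0.726, Ebf1 0.126, Ms4a1 0.805, Fcrla 1.54, Vpreb3 2.79, Vpreb1 2.96 and Cd79a 4.36 FPKM. Vpreb3 averaged 1.10 FPKM in relapse mice and 1.76 FPKM in vehicle mice, while in iCT mice it was listed at 0 in mice 1 and 3 and at 0.481 FPKM in mouse 2. Cd79a and Cd22 went the other way. Cd79a averaged 2.25 FPKM in iCT mice, with its highest value in iCT mouse 2, and 1.49 FPKM in vehicle mice. Cd22 averaged 0.279 FPKM in iCT mice and 0.177 FPKM in vehicle mice. The rest of the list had lower means in iCT mice than in vehicle mice. Of 6 genes of plasmacytoid dendritic cells, 2 exceeded 1 FPKM in some library. Their sum was 1.02 to 2.04 in relapse mice, 0.770 to 16.6 in iCT mice and 0.812 to 1.83 in vehicle mice. The highest sum came with Cox6a2, at 15.8 FPKM in iCT mouse 1. The part of B cells or of plasmacytoid dendritic cells in the changes of Cd180 and Tlr9 was not tested.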

How the data were processed

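RNA-seq FPKM values for sorted leukaemia cells of 12 mice were used as deposited. Per the submitters' processing notes, the authors used STAR and Cufflinks, with no version or option named; the FPKM columns carry 95% intervals, per the file headers. Although mm9 is named there, 22890 of 23028 single-locus symbols (99.4%), all 10 members among them, overlap the same-named gene of GENCODE M21, so coordinates are taken as GRCm38. Tables were joined by symbol and locus, since row order differs between files; 2 entries with a failed estimate were left out.

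Values were log2(FPKM + 1), fitted with limma 3.58.1 (R 4.3.3; trend on mean level) in 1 model of all 12 libraries with group as its term, over the 11019 genes that reached 1 FPKM in 3 or more libraries. Tests are two-sided and Benjamini-Hochberg adjusted, threshold 0.05; differences on this scale understate those of low genes. The fit was first tested on simulated data with known changes. The replicates are single mice, and the p-values weigh a difference of groups against the spread between mice within groups, pooled over all 12 libraries.

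The members and the lists were chosen with earlier results of these data known; the members carry no test. Fragments behind a value were estimated as the square of 2 times FPKM over its interval's upper half-width; 0 columns of other series were found. Intervals cover counting error only. Named genes were up to 4 per list with the smallest p past the threshold in iCT against vehicle and a group mean of at least 5 FPKM, or otherwise the first tested gene of the list; the alike genes were the 6 nearest to Ly86 and the 3 nearest to each other member. A planned comparison of the proteins' sequences was not run, since no protein table was used here. Cell type markers were summed per library, with single levels given for some; 1 listed item is not reported here on its own. Mouse numbers did not pair the libraries: the deviations of same-numbered mice correlated at -0.091 to 0.099.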

Additional observations from a re-analysis of the deposited data

Results flagged for a closer look

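Among 48 groups of 4 or 5 mice checked for a single distant value on the log2(FPKM + 1) scale, 1 stood apart. Ccl3 was 19.4 FPKM in relapse mouse 3, against 12.1 to 13.01 FPKM in the other relapse mice, a gap of 0.853 of the group's range. About 1 group in 20 would stand apart like this by chance.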

How the results depend on the processing

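Of 555 values of the members under an alternative, 535 moved by less than the spread between mice, 20 moved by more, and none changed the direction of a gene whose groups did not overlap. In iCT against vehicle 1060 genes passed; 457 passed with array weights, 341 with only the compared groups, 197 with the replicate block, and 569 to 2722 when 1 library was left out (618 without vehicle mouse 3, 569 without vehicle mouse 5, 686 without iCT mouse 1 and 2722 without iCT mouse 2). In relapse against vehicle 0 passed; 1 passed with no filter on low values, 971 with array weights, 595 with only the compared groups, and 0 to 5 with a library left out (1 without vehicle mouse 4, 5 without iCT mouse 1). In relapse against iCT 1071 passed; 603 passed with array weights, 236 with only the compared groups, 372 with the replicate block, and 529 to 1855 with a library left out (1855 without iCT mouse 3; 593, 529, 583 and 536 without relapse mice 1 to 4). The replicate numbers pair no mice, so the block is only a number here. The median change of the members was -0.47 in iCT against vehicle, -1.36 with a pseudocount of 0.1, and -1.12 to 0.011 with a library left out. In relapse against iCT it was 0.23, 1.12 with a pseudocount of 0.1, 0.81 with a filter at FPKM 5, and -0.079 to 0.88 with a library left out. Without iCT mouse 1, an alternative chosen after seeing the data, 8 pathway genes passed in iCT against vehicle rather than 15. Of 293 values of the named pathway genes, 214 kept direction and call, 76 lost the call, 2 gained it, and 1 changed direction: Tlr1, at 0.055 without iCT mouse 1, in a range of -0.556 to 0.055 with a library left out. The causes were not tested. Depth limits zeros and low values in iCT mouse 1.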
